A study of Mus musculus with 12 samples.

Results

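The 9 genes described here encode ion transporters, water channels and junction proteins of the kinds that fill and seal the blastocoel, the fluid cavity of the blastocyst. They are the ion transport genes Atp1b1, Atp12a and Slc12a2, the water channel genes Aqp3, Aqp8 and Aqp9, and the claudin genes Cldn4, Cldn6 and Cldn7. They were taken by name from the deposited expression table, 9 of its 43472 genes, and all 9 passed the filter on low values that left 10751 genes for testing. The study injected CD1 mouse zygotes with an siRNA against Tdgf1, or with a negative control siRNA, in both cases together with GFP mRNA as an injection marker. Tdgf1 encodes Cripto, a co-receptor for Nodal. Whole embryos of both arms, Tdgf1 siRNA and control siRNA, were sequenced as morulae, early blastocysts and late blastocysts, with 2 libraries in each of the 6 groups and 12 in all. CD1 is an outbred stock, the age of the embryos is given only as a stage, and the sources used here do not give the number of embryos per library. Nothing in the labels says that the 2 libraries of a group came from separate cultures, so every p-value speaks for these libraries alone and for a spread that may be technical.

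The blastocoel forms when the outer cells of the morula become an epithelium, the trophectoderm. Na+/K+-ATPase pumps in the membranes facing the cavity move sodium into the space between cells, water follows through aquaporins, and tight junctions, whose strands are made of claudins, keep the fluid from leaking out. Removing claudins of the sealing type, or the beta subunit of the pump, is known to stop mouse embryos from forming a cavity.

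Libraries held 10524640 to 13770264 reads, and levels are given as CPM, reads of a gene scaled to a common library total, so they are shares of the RNA and not amounts per embryo. In 5 of 6 same-numbered pairs Tdgf1 itself was lower with its siRNA, at 42.6% to 83.6% of control. It was not lower in the early blastocyst library labelled Tdgf1 siRNA replicate 2, with 15.2 CPM against 13.1 CPM in control replicate 2 (116.5%). Tdgf1 did not pass between the siRNAs in the limma test without pairs that is used below. The summed level of 12 trophectoderm markers was 1166 to 1660 CPM in morulae, 2907 to 5711 CPM in early blastocysts and 8509 to 10953 CPM in late blastocysts. That of 12 epiblast markers was 939 to 1411, 1047 to 1240 and 426 to 497 CPM at the same stages, and that of 12 primitive endoderm markers 429 to 515, 288 to 348 and 490 to 616 CPM. Gata6 made up most of this last sum in morulae and fell, with means of 415, 243 and 230 CPM over the stages. Each of the other primitive endoderm markers had a higher mean in late blastocysts than in morulae. Sox17 had 38.5 against 0.066 CPM, and Lama1 had 58.2 against 0.322 CPM. Among the epiblast markers Nanog had 94.2 against 400 CPM, Spic 44.2 against 294 CPM and Pou5f1 134 against 263 CPM. Klf2 and Esrrb also had lower means in late blastocysts than in morulae. The other epiblast markers had higher means there, Etv5 and Gdf3 only slightly. They include Sox2, at 10.9 against 2.20 CPM, and Tdgf1, the target of the siRNA, at 75.5 against 19.8 CPM. Of 12 cumulus and granulosa cell markers, 9 stayed below 1 CPM in every library, among them the defining genes Amh, Foxl2 and Fshr, and the sum was 90.7 to 163 CPM. The others were Nr5a2 at 56.0 to 126 CPM, Serpine2 at 7.88 to 91.9 CPM and Amhr2 at 3.58 to 23.2 CPM. The sum of 12 reproductive tract and blood markers was 27.0 to 58.8 CPM, with Foxj1 at 0 in every library. Cd74, Vim and Pecam1 were the highest of them, at up to 39.1, 28.7 and 20.3 CPM. In these bulk samples fewer cells of a type and less RNA per cell cannot be told apart.

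Most of the 9 genes passed over the whole span of stages, as did most of all tested genes, and not all in the same direction. Between morula and late blastocyst 6 were higher, Atp1b1, Atp12a, Aqp8, Cldn4, Cldn6 and Cldn7, while Slc12a2 was lower and Aqp3 and Aqp9 did not pass. That is 7 of 9 called, where 60.9% of all tested genes were called (36.6% higher and 24.3% lower). A gene is called here when the limma adjusted p is under 0.05, with both siRNA arms averaged at each stage (4 libraries a stage). The median log2 change of the 9 was 1.39, against 0.13 over all tested genes. Trimmed-mean (TMM) scaling moved that all-gene median by -0.12, and the 6 higher genes stood 0.81 to 2.65 above the median. The share of calls that were higher depends on the scaling, 60.0% as reported and 46.6% after quantile normalization.

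The genes that passed were not the same at the 2 steps between neighbouring stages. From morula to early blastocyst 3 of the 9 rose (Atp1b1, Cldn6 and Cldn7), 2 fell (Slc12a2 and Aqp9) and 4 did not pass, where 33.7% of all tested genes were called, 19.7% higher and 14.0% lower. From early to late blastocyst 6 rose (Atp1b1, Atp12a, Aqp8, Aqp9, Cldn4 and Cldn7), Slc12a2 fell, and Aqp3 and Cldn6 did not pass, where 44.7% of all tested genes were called, 27.0% higher and 17.7% lower. Quantile normalization gave 46.8% of the calls of that second step as higher, against 60.4% as reported. Atp1b1 and Cldn7 rose at both steps, a course that 7.97% of all tested genes took, and Slc12a2 fell at both, as 4.35% did. Atp12a, Aqp8 and Cldn4 did not pass at the first step and rose at the second (16.9% of all tested genes), Cldn6 rose at the first and did not pass at the second (9.08%), Aqp9 fell and then rose (2.06%), and Aqp3 passed at neither (38.6%). Whether the 2 steps of a gene differ was not tested. The 4 libraries of neighbouring stages did not overlap for 5 of 9 genes at the first step and 4 of 9 at the second, where the shares of all tested genes were 33.7% and 43.6%, and morulae and late blastocysts did not overlap for 7 of 9 (58.9% of all tested genes). The median log2 changes of the 9 were 0.48 and 0.57 at the first and second step, against 0.05 and 0.09 over all tested genes. Trophectoderm markers, given above, moved with these steps, and their part in the results was not tested.

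**Figure D1:**
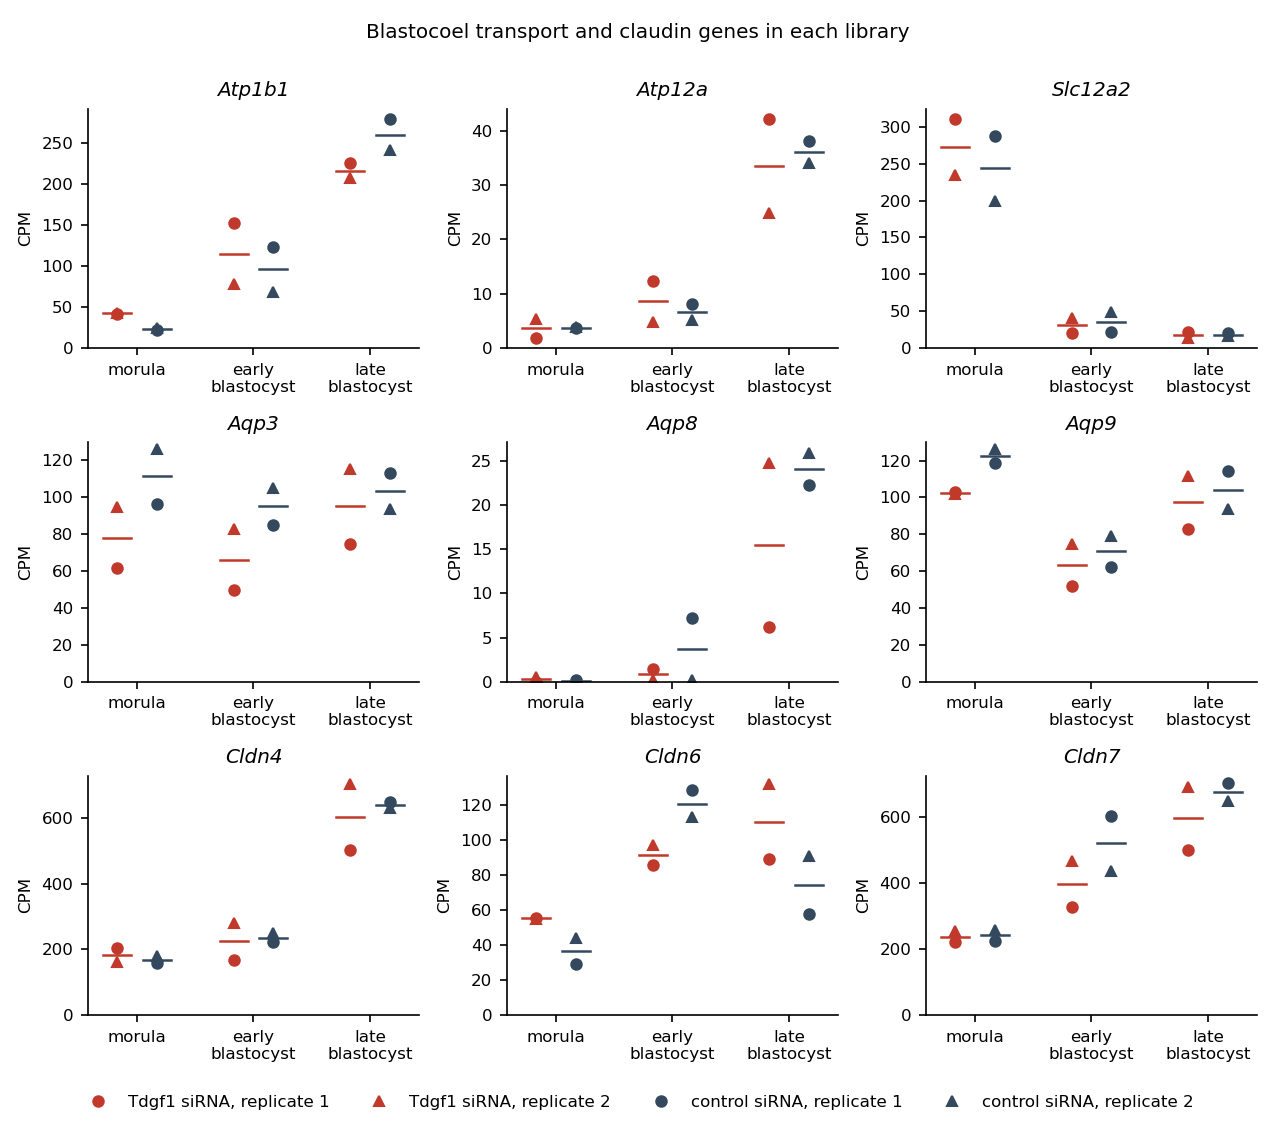
Level of each gene in every library, in CPM, at morula, early blastocyst and late blastocyst, with Tdgf1 siRNA libraries to the left of control libraries at each stage and each panel on its own vertical scale starting at 0; lines are group means. Atp1b1, Atp12a and Cldn4 are higher in every late blastocyst library than in any morula library, Slc12a2 is lower in every one, and the Aqp3 libraries of the 3 stages overlap.

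The regions just before the start of transcription are shown for Atp1b1, Aqp8, Cldn4, Cldn6 and Cldn7, which were higher in late blastocysts than in morulae, and for Aqp3, which did not pass at any step. They come from RefSeq (build GRCm38.p6), whose promoter entries matched 7 of the 9 genes, not Atp12a or Slc12a2. Each runs 5′ to 3′ on the strand of its gene and covers at most 250 bases before the start, and bases inside an annotated exon were left off. Capitals mark matches to 3 of 5 short motifs searched on both strands.
Atp1b1, chr1:164458356-164458605, minus strand: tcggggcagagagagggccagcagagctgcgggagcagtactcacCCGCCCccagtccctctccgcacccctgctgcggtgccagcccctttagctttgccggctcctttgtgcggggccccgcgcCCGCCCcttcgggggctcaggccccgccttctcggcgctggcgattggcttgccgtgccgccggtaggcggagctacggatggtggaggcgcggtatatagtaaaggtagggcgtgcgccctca
Aqp8, chr7:123462044-123462290, plus strand: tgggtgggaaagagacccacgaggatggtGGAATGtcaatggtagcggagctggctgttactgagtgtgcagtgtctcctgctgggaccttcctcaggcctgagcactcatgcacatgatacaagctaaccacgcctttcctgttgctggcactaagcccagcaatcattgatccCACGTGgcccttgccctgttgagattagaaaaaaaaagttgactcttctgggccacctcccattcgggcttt
Cldn4, chr5:134946935-134947184, minus strand: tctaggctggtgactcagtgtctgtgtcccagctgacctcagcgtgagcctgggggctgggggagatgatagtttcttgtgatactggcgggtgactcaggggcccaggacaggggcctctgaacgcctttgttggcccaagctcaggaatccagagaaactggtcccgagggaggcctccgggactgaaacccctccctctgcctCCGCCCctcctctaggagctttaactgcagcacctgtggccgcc
Cldn6, chr17:23679115-23679248, plus strand: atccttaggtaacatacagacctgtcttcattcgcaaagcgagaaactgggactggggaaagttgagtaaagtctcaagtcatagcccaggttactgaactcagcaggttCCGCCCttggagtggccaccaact
Cldn7, chr11:69964529-69964778, plus strand: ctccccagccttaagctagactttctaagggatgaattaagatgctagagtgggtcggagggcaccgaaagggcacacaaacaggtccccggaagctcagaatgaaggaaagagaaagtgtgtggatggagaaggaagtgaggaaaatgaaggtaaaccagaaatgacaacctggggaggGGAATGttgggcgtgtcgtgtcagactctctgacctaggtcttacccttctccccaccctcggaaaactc
Aqp3, chr4:41098184-41098433, minus strand: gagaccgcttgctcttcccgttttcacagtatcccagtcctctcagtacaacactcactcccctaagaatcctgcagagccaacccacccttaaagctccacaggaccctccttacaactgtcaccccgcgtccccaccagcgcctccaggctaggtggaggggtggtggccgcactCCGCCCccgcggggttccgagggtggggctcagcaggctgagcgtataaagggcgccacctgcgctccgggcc

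The letters searched were GCCNNNGGC for AP-2, GGAATG for TEAD and GGGCGG for the KLF and Sp proteins, whose other strand reads CCGCCC. An E-box (CACGTG) and AGATAA, bound by GATA factors, were searched as well. Several of these factors are known to act in the trophectoderm. Atp1b1 held CCGCCC at 205 to 200 and at 124 to 119 bases before the RefSeq start. Cldn4 held it at 44 to 39 bases, Cldn6 at 140 to 135 and Aqp3 at 73 to 68. Exon bases not printed held it at 8 to 3 bases before the start of Cldn6 and at 6 to 1 before a second start of Cldn7. The bases just after both of these starts matched no annotated transcript of the gene, while those of the other windows did. Positions counted from these starts are therefore less certain. The TEAD letters stood at 221 to 216 bases before the start of Aqp8 and at 70 to 65 bases before that of Cldn7, and Aqp8 also held the E-box at 75 to 70 bases. No AP-2 or GATA letters were found in the windows of the 7 genes. Of 32851 promoter windows in the same table, 32.7% held the KLF and Sp letters, 12.6% TEAD, 6.02% the E-box, 13.7% AP-2 and 9.99% GATA. Aqp9 also had promoter entries, which are not printed, and none of the letters searched were found in its windows. The KLF and Sp letters were present both in genes that were higher and in Aqp3, and a match describes the sequence only.

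Atp1b1 encodes the beta 1 subunit of Na+/K+-ATPase, which carries the catalytic subunit to the membrane. On GRCm38 it spans 164437109 to 164458355 of chromosome 1, on the minus strand. In morulae it had 41.6 and 42.7 CPM with Tdgf1 siRNA, against 22.02 and 24.7 CPM with control siRNA. Early blastocysts had 153 and 77.7 CPM with Tdgf1 siRNA, against 124 and 68.4 CPM with control siRNA. Late blastocysts had 225 and 208 CPM with Tdgf1 siRNA, against 279.7 and 241 CPM with control siRNA. The 4 libraries of each stage stood apart from those of the stage before. The means were 32.8 ± 10.9, 106 ± 39.8 and 239 ± 30.5 CPM from morula to late blastocyst (SD, n = 4 each). The gene rose at the first step by 1.57 (log2, SE 0.20, adjusted p = 0.00011) and at the second by 1.21 (SE 0.20, adjusted p = 0.00034), 3.23-fold and 2.26-fold on the means. Over both steps the level was 7.28-fold higher. Atp1b1 overlaps Nme7 on the opposite strand, which reached up to 133 CPM, and strand is not stated for the counting, so reads of the overlap cannot be told apart.

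Atp12a, on chromosome 14 (56365068 to 56388550, plus strand), encodes the catalytic subunit of the non-gastric H+/K+-ATPase, which brings in potassium in exchange for protons. Morulae had 1.90 and 5.40 CPM with Tdgf1 siRNA, against 3.64 and 3.801 CPM with control siRNA. At the early blastocyst stage it had 12.4 and 4.82 CPM with Tdgf1 siRNA, against 8.10 and 5.08 CPM with control siRNA. At the late blastocyst stage it had 42.1 and 24.9 CPM with Tdgf1 siRNA, against 38.1 and 34.0 CPM with control siRNA. Morulae and early blastocysts overlapped, and late blastocysts stood above both. Mean levels were 3.68 ± 1.43, 7.60 ± 3.52 and 34.8 ± 7.37 CPM over the stages, from 22 to 482 reads per library. The first step did not pass (log2 change 0.59, SE 0.24, adjusted p = 0.0724), and the second did (1.81, SE 0.24, adjusted p = 6.95e-05, 4.58-fold on the means). The first step passed with DESeq2 on the recovered reads (adjusted p = 0.0216), without morula Tdgf1 siRNA replicate 2 (0.0396) and without the early blastocyst library labelled Tdgf1 siRNA replicate 2 (0.0181). The antisense gene Gm10873 overlaps Atp12a and was not analysed here.

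Slc12a2, on chromosome 18 (57878678 to 57946821, plus strand), encodes NKCC1, a cotransporter that brings sodium, potassium and chloride into the cell. It ran the other way from the 2 pump genes. Its morula levels were 310.1 and 234 CPM with Tdgf1 siRNA, against 288 and 199.9 CPM with control siRNA. In early blastocysts it had 20.8 and 40.4 CPM with Tdgf1 siRNA, against 21.8 and 48.9 CPM with control siRNA. In late blastocysts it had 21.9 and 14.2 CPM with Tdgf1 siRNA, against 19.98 and 15.8 CPM with control siRNA. Every morula library stood above every blastocyst library, while early and late blastocysts overlapped. The means were 258 ± 50.1, 33.0 ± 13.9 and 17.98 ± 3.58 CPM. The first step fell by 2.90 on the log2 scale (SE 0.24, adjusted p = 1.01e-05, 7.82-fold lower) and the whole course by 3.60 (SE 0.24, adjusted p = 6.57e-08, 14.4-fold lower). The second step passed narrowly (log2 change -0.70, SE 0.24, adjusted p = 0.0325). That call was lost without early blastocyst control replicate 2 (adjusted p = 0.148), the early blastocyst library labelled Tdgf1 siRNA replicate 2 (0.139), late blastocyst Tdgf1 siRNA replicate 2 (0.124), control replicate 2 (0.0988) or control replicate 1 (0.0529), with no filter (0.146) and with a pseudocount of 5 (0.0519). Control libraries alone gave -0.77 (adjusted p = 0.112) and Tdgf1 siRNA libraries alone -0.62 (0.207).

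The 3 aquaporin genes passed at different steps, and whether their courses differ was not tested. Aqp3 encodes an aquaglyceroporin that lets water and glycerol pass and lies on chromosome 4 (41092722 to 41098183, minus strand). In morulae it had 61.5 and 94.6 CPM with Tdgf1 siRNA, against 96.5 and 126 CPM with control siRNA. Early blastocysts had 49.6 and 82.6 CPM with Tdgf1 siRNA, against 85.0 and 105 CPM with control siRNA. Late blastocysts had 74.8 and 116 CPM with Tdgf1 siRNA, against 113 and 93.9 CPM with control siRNA. The libraries of the 3 stages overlapped. Neither step passed (log2 changes -0.23, SE 0.19, adjusted p = 0.383, and 0.32, SE 0.19, adjusted p = 0.199), and the change over the whole course, 0.09 (SE 0.19, adjusted p = 0.710), took the other sign under other scalings.

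Aqp9, on chromosome 9 (71110659 to 71168682, minus strand), is also an aquaglyceroporin, known to carry small solutes besides water. Morulae had 103 and 102 CPM with Tdgf1 siRNA, against 119 and 126 CPM with control siRNA. At the early blastocyst stage it had 51.9 and 74.8 CPM with Tdgf1 siRNA, against 62.3 and 79.3 CPM with control siRNA. At the late blastocyst stage it had 83.1 and 112 CPM with Tdgf1 siRNA, against 115 and 93.5 CPM with control siRNA. The early blastocysts stood below both other stages. The gene fell at the first step (log2 change -0.73, SE 0.14, adjusted p = 0.00197) and rose at the second (0.57, SE 0.14, adjusted p = 0.00614, 1.502-fold on the means). With control libraries alone the second step was 0.54 and did not pass (adjusted p = 0.0665). Aqp9 overlaps Gm47268 and Gm32511, which were not analysed here.

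Aqp8, on chromosome 7 (123462291 to 123468004, plus strand), encodes a water channel that also lets ammonia pass. Its mean level was lowest in morulae, where the Tdgf1 siRNA libraries had 0 and 6 reads and the control libraries 2 and 0 reads; 3 reads correspond to 0.218 to 0.285 CPM. In early blastocysts it had 1.48 and 0.153 CPM with Tdgf1 siRNA, against 7.19 and 0.145 CPM with control siRNA, and the 2 libraries numbered 2 rest on 2 reads each. In late blastocysts it had 6.20 and 24.8 CPM with Tdgf1 siRNA, against 22.3 and 25.9 CPM with control siRNA. Every late blastocyst library was above every morula library, but the lowest late one lay below the highest early one. The second step passed (log2 change 2.03, SE 0.34, adjusted p = 0.000344), as did the whole course (2.51, SE 0.34, adjusted p = 2.23e-05), on a scale with a pseudocount of 3.582 CPM that understates changes from such low levels. No fold is given from morulae at this read depth. The first step did not pass (0.48, SE 0.34, adjusted p = 0.288), and did without early blastocyst control replicate 2 (0.86, adjusted p = 0.0391).

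All 3 claudins were higher in late blastocysts than in morulae. Cldn4, on chromosome 5 (134945119 to 134946934, minus strand), encodes a claudin of the sealing type. Its morula levels were 205 and 162 CPM with Tdgf1 siRNA, against 159 and 178 CPM with control siRNA. Early blastocysts had 168 and 282 CPM with Tdgf1 siRNA, against 223 and 248 CPM with control siRNA. Late blastocysts had 501 and 702 CPM with Tdgf1 siRNA, against 649 and 631 CPM with control siRNA. The late blastocysts stood above all other libraries, and the 2 earlier stages overlapped. The first step did not pass (log2 change 0.36, SE 0.16, adjusted p = 0.0911) and the second did (1.43, SE 0.16, adjusted p = 1.51e-05, 2.70-fold). Without early blastocyst Tdgf1 siRNA replicate 1, the lowest of its stage, the first step was 0.54 and passed (adjusted p = 0.0104).

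Cldn7, on chromosome 11 (69964779 to 69967885, plus strand), encodes a claudin found along the sides of many epithelial cells as well as at their tight junctions. In morulae it had 222 and 253 CPM with Tdgf1 siRNA, against 226 and 257 CPM with control siRNA. At the early blastocyst stage it had 328 and 468 CPM with Tdgf1 siRNA, against 604 and 437 CPM with control siRNA. At the late blastocyst stage it had 501 and 690.4 CPM with Tdgf1 siRNA, against 702 and 649.6 CPM with control siRNA. Morulae stood below both blastocyst stages, which overlapped each other. The first step passed (log2 change 0.90, SE 0.15, adjusted p = 0.000576, 1.92-fold). The second passed narrowly (0.49, SE 0.15, adjusted p = 0.0159) and was lost with TMM scaling (0.0532), with edgeR on recovered reads (0.0705) and with no filter (0.0785). Tdgf1 siRNA libraries alone (0.0572) and control libraries alone (0.177) did not pass either. It was also lost without late blastocyst Tdgf1 siRNA replicate 2 (0.0813), early blastocyst control replicate 2 (0.0718), early blastocyst Tdgf1 siRNA replicate 1 (0.0604) or late blastocyst control replicate 1 (0.0560).

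Cldn6 is a claudin typical of embryonic epithelia and lies on chromosome 17 (23679249 to 23682446, plus strand). Morulae had 55.4 and 54.8 CPM with Tdgf1 siRNA, against 29.0 and 44.1 CPM with control siRNA. In early blastocysts it had 85.4 and 96.8 CPM with Tdgf1 siRNA, against 128 and 113 CPM with control siRNA. In late blastocysts it had 89.0 and 131 CPM with Tdgf1 siRNA, against 57.8 and 90.6 CPM with control siRNA. All early blastocysts stood above all morulae, and the 2 blastocyst stages overlapped. The first step passed (log2 change 1.17, SE 0.17, adjusted p = 0.00028, 2.31-fold) and the second did not (-0.23, SE 0.17, adjusted p = 0.293). With control libraries alone the second step fell by 0.70 on the log2 scale and passed (adjusted p = 0.0452), and with Tdgf1 siRNA libraries alone it was 0.24 and did not pass (adjusted p = 0.496). With Tdgf1 siRNA libraries alone the first step was 0.69 and did not pass either (adjusted p = 0.0717).

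**Figure D2:**
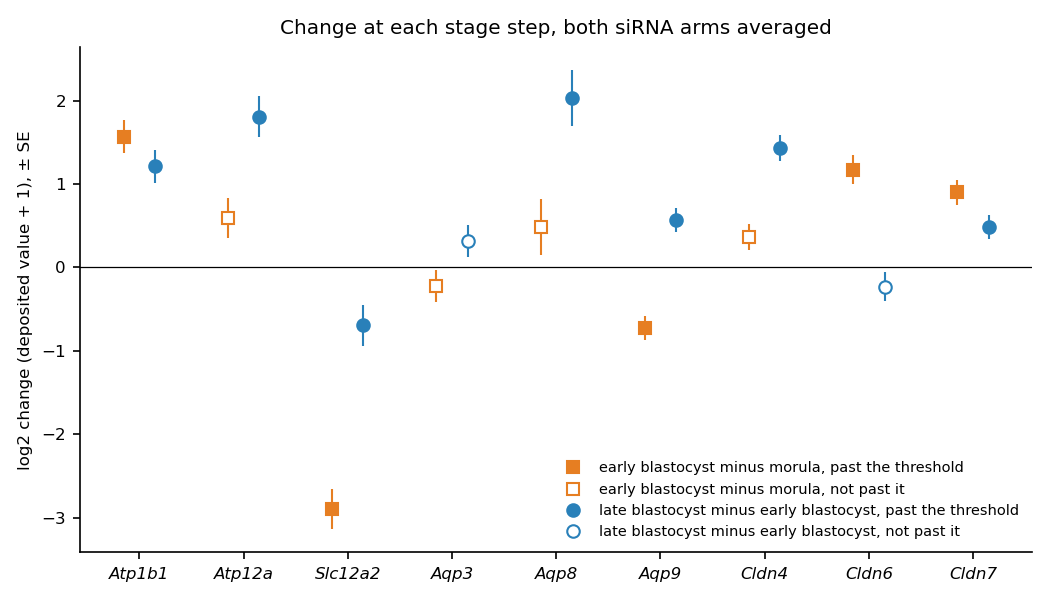
Log2 change of each gene from morula to early blastocyst and from early to late blastocyst, with both siRNA arms averaged, bars of 1 SE from the limma fit and filled symbols for changes past the threshold. Atp1b1 and Cldn7 are filled and above 0 at both steps, Slc12a2 is filled and below 0 at both, Aqp9 is below 0 and then above it, and both Aqp3 symbols are open.

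Divided by the length of the exons of each gene, the levels can be set in order between genes. In morulae Cldn7 led at 123 ± 9.32 CPM per kb, followed by Cldn4 at 97.1 ± 11.5 and Aqp3 at 51.8 ± 14.4 CPM per kb (SD, n = 4). Aqp9, Cldn6 and Slc12a2 followed at 27.1 ± 2.92, 26.6 ± 7.18 and 23.6 ± 4.59 CPM per kb, which did not differ beyond their spread. Atp1b1 had 10.6 ± 3.54 CPM per kb, and Atp12a and Aqp8 lay lowest, at 0.917 ± 0.356 and 0.116 ± 0.164 CPM per kb. By the late blastocyst Atp1b1 was in the third place, at 77.5 ± 9.91 CPM per kb, behind Cldn4 at 342 ± 47.0 and Cldn7 at 326 ± 47.4 CPM per kb, a pair whose ranges overlap within 1 SD. With the longest transcript as the length Cldn7 had 476 ± 69.2 CPM per kb there and stood first. Aqp3 had 54.3 ± 10.4 and Cldn6 53.6 ± 17.6 CPM per kb there, also within their spread of each other. Slc12a2 came last, at 1.65 ± 0.328 CPM per kb, below Atp12a at 8.66 ± 1.83 and Aqp8 at 12.5 ± 5.81 CPM per kb.

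**Figure D3:**
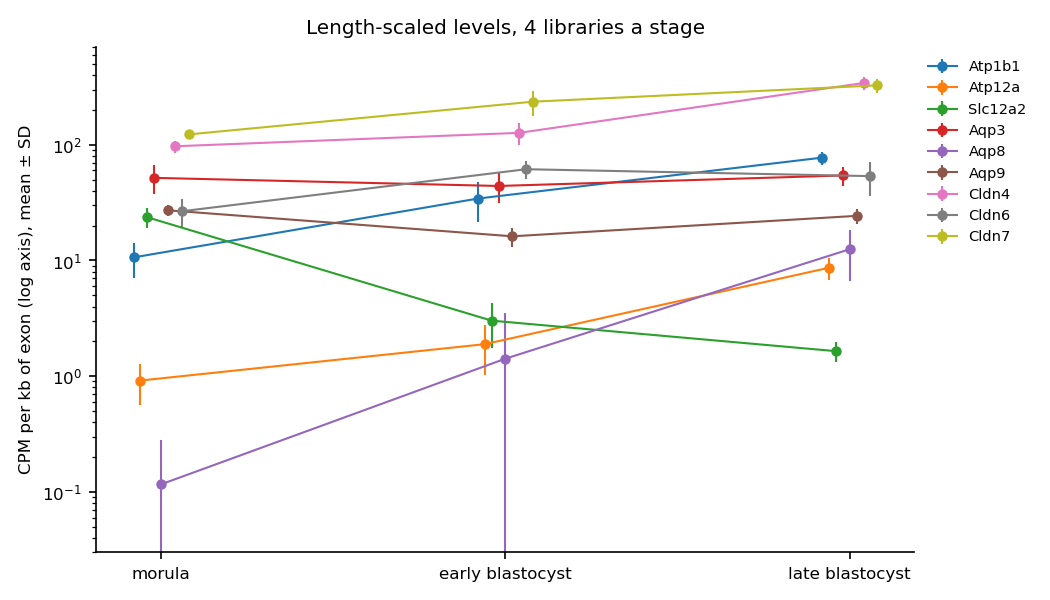
Level of each gene divided by its exon length, in CPM per kb on a log axis, at the 3 stages, as the mean of 4 libraries with the SD; the lower Aqp8 bars in morulae and early blastocysts exceed the mean and are cut at the axis. Slc12a2 drops to the lowest level of the 9 in late blastocysts, while Atp1b1 moves to the third place behind Cldn4 and Cldn7.

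Within the early blastocyst the libraries numbered 1 and 2 differed in several of the genes, whichever siRNA they carried. Atp1b1 was 1.97-fold higher in replicate 1 than in replicate 2 with Tdgf1 siRNA and 1.81-fold higher with control siRNA. For Atp12a the ratios were 2.57 with Tdgf1 siRNA and 1.59 with control siRNA. For Slc12a2 they were 0.516 and 0.447, and for Aqp9 0.693 and 0.785, in the same order. Cldn7 was the other way round in the 2 arms, 0.702 with Tdgf1 siRNA and 1.38 with control siRNA. In late blastocysts Tdgf1 siRNA replicate 1 had the lowest level of the 4 libraries for Aqp3, Aqp8, Aqp9, Cldn4 and Cldn7. These ratios compare single libraries and carry no test.

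**Figure D4:**
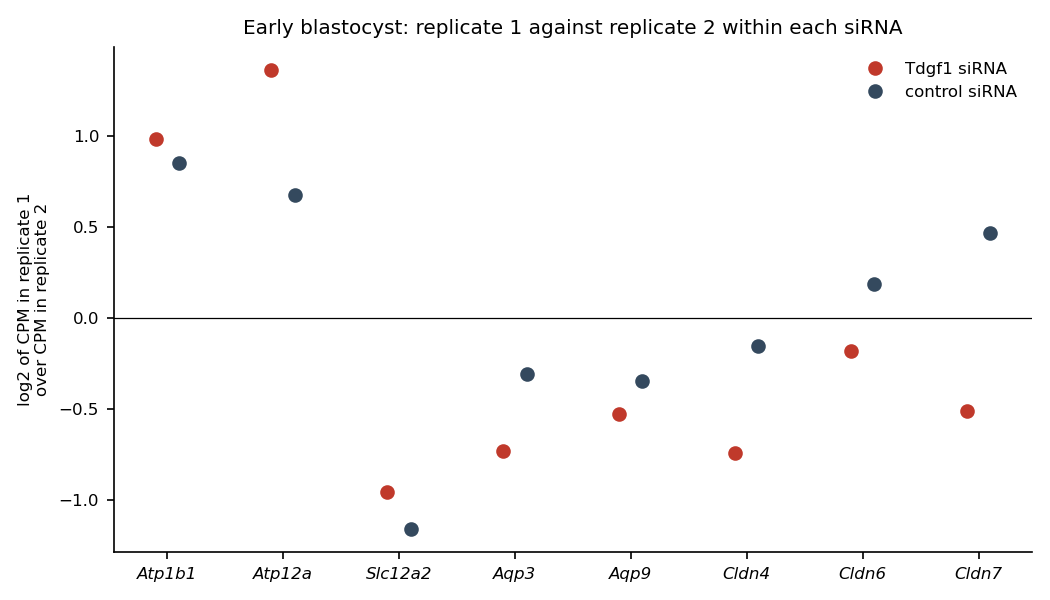
Log2 ratio of replicate 1 to replicate 2 in early blastocysts for 8 of the genes, with Tdgf1 siRNA left of control siRNA. Aqp8 is not drawn because it rests on 2 reads in each replicate 2. Atp1b1 and Atp12a lie above 0 and Slc12a2, Aqp3, Aqp9 and Cldn4 below 0 in both arms, while Cldn6 and Cldn7 take opposite signs.

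Without pairing of the libraries, no gene of the 9 passed between Tdgf1 siRNA and control embryos, at any stage or averaged over the stages. Adjusted over all genes, 0 of 9 were called in each of these comparisons with limma, where 0.0% of all tested genes were called, and edgeR and DESeq2 on the recovered reads also called 0 of 9. Tdgf1, the target of the siRNA, was among the genes tested and was not called in these limma comparisons either. With same-numbered libraries as a block, limma called 1 of 9, Atp1b1 at morula. At an unadjusted p under 0.05, 2 of 9 stood out in morulae, 0 in early blastocysts, 1 in late blastocysts and 1 in the average, where the shares of all tested genes were 1.8%, 1.04%, 2.06% and 2.49%. The 2 groups did not overlap for 4 of 9 genes in morulae (44.4%), 2 in early blastocysts (22.2%) and 1 in late blastocysts (11.1%), where the shares of all tested genes were 27.5%, 19.4% and 31.9%. The median log2 difference of the 9 was 0.07 in morulae, -0.16 in early and -0.14 in late blastocysts, against 0.01, 0.00 and 0.02 over all tested genes.

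Atp1b1 had the smallest p of the 9 at morula. Its mean there was 42.2 ± 0.816 CPM with Tdgf1 siRNA, against 23.4 ± 1.90 CPM with control siRNA (SD, n = 2 each), a log2 difference of 0.77 with a 95% interval of 0.16 to 1.37. The limma p of 0.0174 became 0.99995 after adjustment over all genes. With same-numbered pairs as a block the same difference passed (adjusted p = 0.0446), while edgeR with the block called 0 of the 9. At late blastocyst the order was opposite, at 217 ± 12.3 CPM with Tdgf1 siRNA and 260.5 ± 27.2 CPM with control siRNA, again without overlap (log2 difference -0.26, 95% interval -0.87 to 0.35). Without late blastocyst control replicate 1 that difference was -0.15. The summed trophectoderm markers of the same libraries were 1415 to 1660 CPM with Tdgf1 siRNA, against 1166 to 1503 CPM with control siRNA, at morula, and 8509 to 9524 CPM, against 9998 to 10953 CPM, at late blastocyst. Their part in the Atp1b1 values was not tested.

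Cldn6 changed order between the stages. With Tdgf1 siRNA it averaged 55.1 ± 0.403 CPM in morulae, against 36.6 ± 10.7 CPM with control siRNA (log2 difference 0.57, 95% interval 0.05 to 1.10). In early blastocysts it averaged 91.1 ± 8.07 CPM with Tdgf1 siRNA, against 120.5 ± 11.1 CPM with control siRNA (-0.39, interval -0.91 to 0.13). That difference was -0.48 without the early blastocyst library labelled Tdgf1 siRNA replicate 2 and -0.30 without Tdgf1 siRNA replicate 1. In late blastocysts Cldn6 averaged 110.3 ± 30.0 CPM with Tdgf1 siRNA, against 74.2 ± 23.2 CPM with control siRNA (0.56, interval 0.03 to 1.08). The groups did not overlap at the first 2 stages and overlapped at the third. The morula value was 0.30 without control replicate 1 and 0.85 without control replicate 2. Groups that did not overlap, in opposite directions at different stages, were found for 2 of the 9 genes, Atp1b1 and Cldn6, and for 6.95% of all tested genes. A moderated F test of whether the siRNA difference varies over the stages gave an unadjusted p of 0.0214 for Cldn6 and 0.0688 for Atp1b1, and neither passed over all genes (adjusted p = 0.99989), where 0.0% of all tested genes were called.

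Aqp3 and Aqp9 were lower with Tdgf1 siRNA in 5 of 6 same-numbered pairs each, and neither passed. No other gene of the 9 had 5 pairs in 1 direction, and the share of all tested genes that did was not computed. The 6 pairs include the early blastocyst pair numbered 2, in which Tdgf1 itself was not lower with its siRNA. Aqp3 averaged 78.1 ± 23.4 CPM with Tdgf1 siRNA, against 111 ± 21.0 CPM with control siRNA, in morulae, and 66.1 ± 23.3 CPM, against 95.1 ± 14.3 CPM, in early blastocysts. Both stages showed no overlap between the groups. The morula log2 difference was -0.51, and it was -0.21 without Tdgf1 siRNA replicate 1 and -0.81 without Tdgf1 siRNA replicate 2. Leaving out control replicate 2 gave -0.32. The early blastocyst difference was -0.54, and it was -0.19 without Tdgf1 siRNA replicate 1 and -0.88 without the early blastocyst library labelled Tdgf1 siRNA replicate 2. Averaged over the stages the Aqp3 log2 difference was -0.40 (SE 0.16, 95% interval -0.74 to -0.06, unadjusted p = 0.0251, limma adjusted p = 0.99998). For Aqp9 the groups did not overlap in morulae, at 102 ± 0.945 CPM with Tdgf1 siRNA and 123 ± 5.36 CPM with control siRNA (log2 difference -0.25, interval -0.69 to 0.19).

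The intervals of the other genes show what these libraries could not resolve. For Cldn4 the log2 difference was 0.11, -0.11 and -0.11 from morula to late blastocyst, with intervals between -0.59 and 0.59. For Slc12a2 it was 0.17, -0.16 and -0.01, with intervals from -0.90 to 0.91. For Cldn7 it was -0.02, -0.39 and -0.20, with intervals from -0.83 to 0.42, and that of early blastocysts was -0.83 to 0.06. For Atp12a it was -0.06, 0.20 and -0.14, with intervals from -0.87 to 0.94. Aqp8 had the widest intervals, at late blastocyst -1.75 to 0.29 around -0.73, from libraries with 71 and 281 reads with Tdgf1 siRNA, against 243 and 336 reads with control siRNA.

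**Figure D5:**
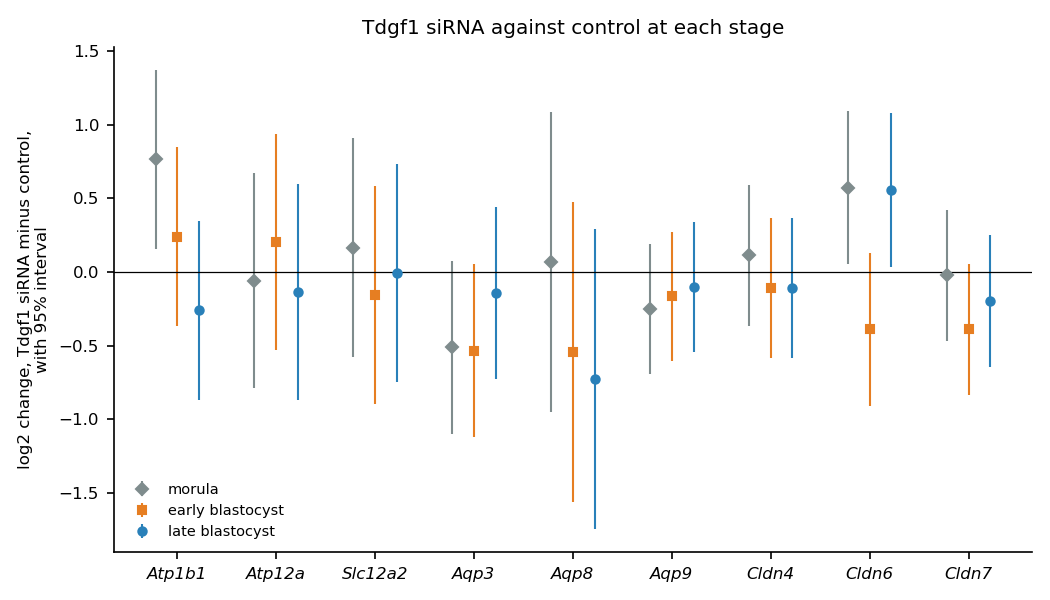
Log2 difference between Tdgf1 siRNA and control embryos for each gene at each stage, with 95% intervals from the limma fit. The intervals of Atp1b1 and Cldn6 at morula and of Cldn6 at late blastocyst lie above 0 before adjustment over all genes, and the other intervals cross 0.

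Other genes of the same machinery were described by lists of their own. The FXYD genes encode small proteins that tune the pump. Fxyd1, Fxyd2, Fxyd3 and Fxyd7 fell below the filter and were not tested. The 3 FXYD genes tested rose from morula to late blastocyst, where 36.6% of all tested genes were higher and 24.3% lower. Fxyd6 had 1.38 ± 0.801, 4.05 ± 2.81 and 12.8 ± 2.57 CPM (log2 change 1.72, adjusted p = 1.56e-05), and Fxyd4 had 9.30 ± 0.757, 14.7 ± 4.20 and 34.1 ± 5.70 CPM (1.54, adjusted p = 5.32e-06). Fxyd5 also rose, from 1.42 ± 0.320 CPM in morulae to 7.65 ± 1.74 CPM in late blastocysts. The pseudocount of 3.582 CPM understates the log2 changes of Fxyd6 and Fxyd5, whose morula means lay below it. Atp1b3, another beta subunit of the pump, chosen after its values were seen, did not pass, at 206 ± 30.0, 163 ± 11.7 and 169 ± 19.8 CPM. Of 9 further aquaporins 1 passed the filter, Aqp11, which rose (1.03, SE 0.18, adjusted p = 0.000239).

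Most genes for partners of claudins in the tight junction rose. Of 17 tested, 15 rose from morula to late blastocyst, where 36.6% of all tested genes were higher and 24.3% lower. Ybx3 fell (log2 change -0.32) and Marveld3 did not pass (0.29, adjusted p = 0.147), a pair chosen after their values were seen. The median log2 change of the 17 was 1.21, against 0.13 over all genes. Cgnl1, a paralogue of cingulin at the cytoplasmic face of the junction, had 7.66 ± 1.72, 17.5 ± 11.2 and 68.4 ± 11.5 CPM over the stages (2.68, adjusted p = 7.56e-06). The scaffold gene Tjp3 had 11.3 ± 3.87, 28.6 ± 8.19 and 85.9 ± 18.2 CPM (2.60, adjusted p = 6.16e-07), and Cgn, for cingulin itself, had 40.4 ± 7.49, 47.0 ± 8.19 and 153 ± 17.0 CPM (1.84, adjusted p = 5.35e-07). Jam2, an adhesion molecule of the junction, rose by 1.63 (adjusted p = 0.000114). At the first step 4 of the 17 rose, near the 19.7% of all tested genes that were higher, and at the second 13 rose and 1 fell, against 27.0% and 17.7% of all tested genes. Of 23 further claudins, 4 passed the filter. Cldn3 rose from morula to late blastocyst (3.65, SE 0.21, adjusted p = 2.43e-08), and Cldn9, Cldn12 and Cldn25, chosen after their values were seen, did not pass.

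Transporters of ions and acid were mixed. Of 18 tested, 11 rose, 3 fell and 4 did not pass from morula to late blastocyst, beside 36.6% higher and 24.3% lower over all tested genes. Clic1, a chloride channel protein, had 3.19 ± 0.878, 20.6 ± 8.35 and 70.6 ± 13.9 CPM (log2 change 3.44, SE 0.24, adjusted p = 8.23e-08). Slc9a3r1, a scaffold for sodium-proton exchangers, had 24.3 ± 4.75, 77.1 ± 34.6 and 175 ± 20.8 CPM (2.68, adjusted p = 1.1e-06), and the carbonic anhydrase genes Car4 and Car2 rose by 1.80 and 1.79. Car4 went from 5.62 ± 1.45 CPM in morulae to 28.9 ± 7.63 CPM in late blastocysts, and Car2 from 0.177 ± 0.244 to 10.2 ± 4.82 CPM. The pseudocount of 3.582 CPM understates the change of Car2, whose morula libraries were at or near the limit of 3 reads. The 3 that fell, chosen after their values were seen, were the potassium-chloride cotransporters Slc12a7 (-1.16) and Slc12a4 (-0.67) and the chloride channel Clcn2 (-0.86).

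A list of kinases and other regulators of ion transport gave 1 higher, 2 lower and 5 not passing of 8 tested from morula to late blastocyst, where 36.6% of all tested genes were higher and 24.3% lower. Wnk2 had 5.32 ± 0.591, 18.8 ± 7.42 and 122 ± 27.6 CPM (log2 change 3.80, SE 0.23, adjusted p = 3.42e-08), while Wnk3 had 36.9 ± 10.99, 15.4 ± 6.02 and 11.01 ± 3.50 CPM (-1.46, adjusted p = 0.000194). Sgk3 fell by 1.22 (adjusted p = 0.000246). Of 17 transcription factors of the trophectoderm 11 rose, 5 fell and 1 did not pass, against the same shares of all tested genes. Gata2 and Eomes rose to 84.7 ± 17.4 and 191 ± 23.2 CPM in late blastocysts, Tfap2a to 45.7 ± 5.32 CPM, and Hand1 fell to 0.748 ± 0.815 CPM, against 73.3 ± 9.61 CPM in morulae. None of the genes on these lists passed in a comparison of Tdgf1 siRNA with control embryos in the limma fit without pairs, which called 0.0% of all tested genes there.

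The genes whose levels ran most like each of the 9 were taken by Pearson r of log2 values over the 12 libraries. These libraries fall into 3 stages, and each library gives both values of a point, so r describes stage courses and no p is given. Atp1b1 was most like Gata3, a trophectoderm transcription factor (r = 0.990), and Sipa1l2 (0.990). Gata3 had 90.2, 210.1 and 419 CPM over the stages. Slc12a2 was most like Tfrc, the transferrin receptor gene (0.990), which had 781, 137 and 65.3 CPM, and Ell2 (0.987). Cldn4 was most like Gkap1 (0.984) and Ndufb8 (0.983), and Cldn7 was most like Kdf1 (0.980) and Rnpep (0.977). Atp12a had Sfi1 (0.986) and Acox3 (0.985), and Aqp8 had Mrgbp (0.978) and Elf1 (0.975). The values were lower for Cldn6, with Yif1a (0.934) and 4930581F22Rik (0.932), for Aqp9, with Gpn3 (0.921) and Sgsh (0.918), and for Aqp3, with Acp5 (0.882) and Yipf1 (0.878).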

How the data were processed

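Per the labels' protocols, cDNA of CD1 mouse embryos was amplified with a SMARTer low-input kit and sequenced as NEBNext libraries. The submitters' processing notes name HISAT2 2.1.0, Cufflinks, HTSeq and edgeR and the build mm10, without saying what each was used for. The authors deposited 1 table with columns named RPKM, per the file headers, but its values are CPM divided by a constant. In each column every value was a whole multiple of 1 step (100% within 0.01 reads), every column summed to 279173.646, and the values were not divided by gene length. Multiplying by 3.582 gave CPM, and the steps gave back whole reads. The design had assumed RPKM and its test was kept. The floor of 3 reads covers counting error only, since amplified reads are not independent molecules, while the 95% intervals come from the limma fit and rest on the spread between libraries.

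Tests used the lmFit and eBayes functions (with a trend) of limma 3.58.1, run in R 4.3.3. They took log2(deposited value + 1), over the 10751 genes that averaged 1 deposited unit or more, with 6 group means, 6 residual and 7.55 prior degrees of freedom and Benjamini-Hochberg adjustment over all genes. Log2 changes are on that scale. The alternatives were edgeR 4.0.16 and DESeq2 1.42.0 on the recovered reads, other pseudocounts and filters, TMM and quantile scaling, each arm alone, each library left out, and a block. The correlation of same-numbered libraries, as deviations from their groups, was 0.458 in morulae, 0.593 in early and 0.101 in late blastocysts. The numbers were used as pairs within each stage in the block, while the main fit used no pairs. At late blastocyst the correlation gives little ground for pairing. No label states a shared day or litter. Libraries of 1 group differed by a chi-square of 17.0 to 41.1 per gene, so none were merged. Of the steps described here, only the limma comparison of the siRNAs at morula was tried on simulated reads.

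The 9 genes and the lists were chosen with earlier results of these data known. Named were the 9 in every library, for each other list at most 4 called genes with the largest change from morula to late blastocyst, any list gene called in an siRNA comparison, and for each of the 9 the 2 genes with the highest Pearson r. Coordinates are 1-based from GENCODE M21, to which 39368 of the deposited names (90.6%) matched as 1 gene, and promoters are from RefSeq. Exon lengths are the union of exons. An item of the pump list is not reported here. Tables used Python 3.11.15 with pandas 2.3.3, numpy 2.4.6 and scipy 1.17.1, and plots used matplotlib 3.10.9.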

Additional observations from a re-analysis of the deposited data

Results flagged for a closer look

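In 2 of the 9 genes the libraries with Tdgf1 siRNA lay on opposite sides of the control libraries at different stages, with no overlap at either. For Atp1b1 the log2 difference was 0.77 at morula and -0.26 at late blastocyst. The late blastocyst value was -0.15 without control replicate 1 and -0.36 without control replicate 2. For Cldn6 it was 0.57 at morula and -0.39 at early blastocyst, and the morula value was 0.30 without control replicate 1 and 0.85 without control replicate 2. The same pattern was seen in 6.95% of all tested genes. These stages were picked by the values themselves, so the difference between them was not tested apart from that choice. Each value rests on 2 libraries a group, and for Cldn6 on the early blastocyst library labelled Tdgf1 siRNA replicate 2. Among the 27 sets of 4 libraries, 1 for each of the 9 genes at each stage, no single library lay beyond Dixon's critical value.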

How the results depend on the processing

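Each group has 2 libraries, so an siRNA difference had to be large to pass, and Aqp8 in morulae and in the early blastocysts numbered 2 is at or near the limit of 3 reads. The 7 calls among the 9 genes from morula to late blastocyst held without each library in turn (7 to 7 called), and the first step gave 5 to 6 and the second 5 to 7. A filter at a mean of 5 removed Aqp8 and Atp12a from the tests. With the replicate block, pairing same-numbered libraries, 1 of the 9 genes (Atp1b1) passed at morula in place of 0. Over all genes the block gave 5 calls in morulae, 5 in early and 3 in late blastocysts and 1 in the test across stages, against 0. EdgeR with the block gave 1 at morula, 5 at early blastocyst, 1 in the average and 2 across stages. At late blastocyst no filter gave 11 calls, DESeq2 1, and leaving out a library 0 to 1 (1 without Tdgf1 siRNA replicate 2). The block changed no other call of the 9 genes between siRNAs. With control libraries alone all-gene calls were 1702 at the first step and 2979 at the second, and with Tdgf1 siRNA libraries alone 1658 and 2539, against 3623 and 4803 with both, with fewer libraries in each. The Cldn6 second step changed sign with Tdgf1 siRNA libraries alone (0.24). The Aqp3 change from morula to late blastocyst changed sign with control libraries alone (-0.10), quantile normalization (-0.0022), TMM (-0.0506), edgeR (-0.0538) and DESeq2 (-0.0676), and ranged from -0.0619 to 0.24 without each library. The causes were not tested. With the longest transcript as the length, 10 of the 27 levels per kb moved beyond 1 SD, among them Cldn7 in late blastocysts to 476 CPM per kb.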

Other observations

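Next to 2 of the claudin genes lie other claudins with courses of their own, chosen after their values were seen. Cldn3, a sealing claudin, lies 39280 bases from Cldn4 on chromosome 5. It had 2.21 ± 0.919, 7.32 ± 1.40 and 70.4 ± 21.6 CPM over morula, early and late blastocyst (SD, n = 4 each), and rose at both steps (log2 changes 0.92, adjusted p = 0.0052, and 2.73, adjusted p = 1.17e-06, with limma). Cldn4 passed at the second step and not at the first. Cldn9 lies 138 bases from Cldn6 on chromosome 17. It had 2.76 ± 1.67, 8.49 ± 3.84 and 1.27 ± 0.912 CPM, so it rose at the first step (0.90, adjusted p = 0.0131) and fell at the second (-1.27, adjusted p = 0.00108), while Cldn6 rose at the first and did not pass at the second. Whether the steps of each pair of neighbours differ was not tested.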
